A study of Mus musculus with 6 samples.

Results

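The messages of the enteroendocrine cells of intestinal crypts were compared between WT mice and mice lacking the co-repressor MTG16. The 10 genes described are Gcg, Pyy, Nts, Cck, Sct, Gip, Ghrl, Sst, Tac1 and Tph1. They were chosen by name, as peptide hormone genes of the gut and the enzyme gene of serotonin synthesis, from the 24736 gene symbols of a table of TPM values. Earlier results of these data were known when they were chosen. TPM is the abundance of a transcript as a share of all transcripts of the library, corrected for transcript length, so levels of different genes can be compared within a library. Crypts had been released from the full length of the gut of male mice, 12 weeks old in both groups, by 30 minutes in cold PBS with 2 mM EDTA, and total RNA was sequenced after removal of ribosomal RNA. There were 3 WT and 3 Mtg16-/- mice, untreated in both groups, with 1 library per mouse. The labels call the knockout CRISPR induced whereas the study's methods list Mtg16-/- mice obtained from another laboratory, and this was not resolved.

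Enteroendocrine cells are rare secretory cells of the gut epithelium that arise from crypt progenitors and release peptide hormones or serotonin in response to nutrients, bile acids and microbial products. Their subtypes are classically named by their main product, and single cells often make several hormones whose mix changes along the gut and as the cell matures. MTG16, encoded by Cbfa2t3, is a transcriptional co-repressor that is brought to DNA by transcription factors, among them basic helix-loop-helix proteins, the family to which the enteroendocrine regulators Neurog3 and Neurod1 belong.

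All libraries were of epithelium, with summed TPM of 11 epithelial genes between 10703 and 13475. Cbfa2t3 itself was at 3.67, 6.69 and 4.52 TPM in WT and at 4.62, 6.43 and 3.23 TPM in the libraries labelled Mtg16-/-, with a log2 fold change of -0.06 (SE 0.27, limma adjusted p = 0.937). The gene-level value therefore did not tell the genotypes apart, and every direction below rests on the labels. Genes of the stomach lining (10 of a list of 11 were in the table) summed to 562 and 103 TPM in WT replicates 2 and 3 and to between 1.76 and 4.33 TPM in the other 4 libraries. They were led by Tff1, Gkn2 and Gkn1, each listed at 0 in those 4, whereas the acid pump gene Atp4b was listed at 0 in all. Enterocyte genes (15 genes) summed to between 13464 and 38404 TPM in WT and between 6934 and 13731 TPM in Mtg16-/- crypts, and Paneth cell genes (17 genes) to between 12951 and 30472 TPM in WT and between 36970 and 47173 TPM in Mtg16-/- crypts. In bulk crypts, more cells of a type and more RNA per cell cannot be told apart.

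The starts of 4 genes are shown because Gcg, Pyy and Tac1 had the largest log2 fold changes of the 10 genes and Gip the smallest, and because basic helix-loop-helix proteins read the short motif CANNTG. Each sequence is the 250 bases before an annotated RefSeq start in GRCm38.p6, from 5′ to 3′ on the gene's strand, with every CANNTG in capitals. The windows are chr2:62483654-62483903 on the minus strand for Gcg, chr11:102107833-102108082 on the minus strand for Pyy, chr6:7554811-7555060 on the plus strand for Tac1 and chr11:96024295-96024544 on the plus strand for Gip.
Gcg: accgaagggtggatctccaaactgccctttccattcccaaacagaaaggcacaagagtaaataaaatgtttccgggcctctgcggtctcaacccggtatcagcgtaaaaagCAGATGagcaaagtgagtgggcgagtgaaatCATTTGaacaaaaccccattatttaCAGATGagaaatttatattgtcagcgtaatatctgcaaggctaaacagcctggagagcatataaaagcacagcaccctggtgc
Pyy: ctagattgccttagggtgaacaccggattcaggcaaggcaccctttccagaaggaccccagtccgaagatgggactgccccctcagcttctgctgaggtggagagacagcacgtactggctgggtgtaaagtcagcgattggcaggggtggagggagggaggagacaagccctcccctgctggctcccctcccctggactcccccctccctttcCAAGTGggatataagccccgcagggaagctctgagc
Tac1: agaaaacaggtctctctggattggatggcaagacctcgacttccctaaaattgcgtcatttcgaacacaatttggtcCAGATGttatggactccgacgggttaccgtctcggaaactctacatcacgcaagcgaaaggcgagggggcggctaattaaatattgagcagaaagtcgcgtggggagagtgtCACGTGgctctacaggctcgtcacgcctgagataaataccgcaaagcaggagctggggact
Gip: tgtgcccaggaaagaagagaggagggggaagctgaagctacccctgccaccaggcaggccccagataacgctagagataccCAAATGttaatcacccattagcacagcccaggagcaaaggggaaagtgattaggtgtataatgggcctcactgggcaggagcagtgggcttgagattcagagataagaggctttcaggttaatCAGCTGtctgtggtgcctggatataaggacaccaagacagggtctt

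The Gcg window held 3 CANNTG matches, 139, 108 and 83 bases before the start, of which the first and last read CAGATG. The Tac1 window held CAGATG at 173 and CACGTG at 61 bases before the start, the Gip window CAAATG at 169 and CAGCTG at 46 bases, and the Pyy window CAAGTG at 36 bases. Over all annotated starts of the 10 genes, which gave 15 windows, CANNTG was found for 9 genes and not for Tph1. CAGATG, searched on both strands, was found for 4 genes (Gcg, Tac1, Cck and Sct) and CAGCTG for 4 (Gip, Ghrl, Nts and Sct). Every CAGATG and CAGCTG is also a CANNTG. By window, CANNTG was in 11, CAGATG in 4 and CAGCTG in 4 of the 15. Among all 32851 windows of the same length, 66.2% held CANNTG, 14.4% CAGATG and 13.0% CAGCTG. A match describes letters in the window and not a bound site.

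Mean levels of the hormone messages were higher in Mtg16-/- crypts, most of all for Gcg and Pyy, at 2.26 and 2.20 times the WT mean, and least for Sct and Gip, at 1.07 and 1.04 times. None of these differences passed the adjusted threshold. The genes were chosen with earlier results of these data known, so the shares that follow describe and do not test. In each of 10 genes the log2 fold change was above 0, against 46.4% of the 12268 genes tested, and the median was 0.60, against -0.03 over all genes tested. In 6 of 10 genes (Gcg, Pyy, Cck, Ghrl, Sst and Tac1) all Mtg16-/- libraries lay above all WT libraries, which was the case for 9.94% of genes tested. In 0 of 10 did they lie wholly below, against 11.1% of genes tested. The same 6 had an unadjusted limma p under 0.05, against 6.53% of genes tested with such a p in this direction. After Benjamini-Hochberg adjustment over all genes, 0 of 10 passed the threshold of 0.1, as did 0.0326% of genes tested (4 of 12268). Gcg missed it narrowly, with an adjusted p of 0.104 and the rank of 13 among all genes by p. The other 9 had adjusted p between 0.237 and 0.911, so the values below are given as differences and not as calls. With limma's array weights, which give less weight to libraries that deviate more, 6 of 10 were called (Gcg, Pyy, Nts, Cck, Sst and Tac1), and 6.97% of all tested genes. With the replicate number as a block, 4 of 10 were called (Gcg, Pyy, Nts and Tac1), among 1201 of the 12268 genes tested. Whether these numbers pair the mice is open. A two-sided exact permutation test of 3 against 3 mice cannot give a p below 0.1.

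**Figure D1:**
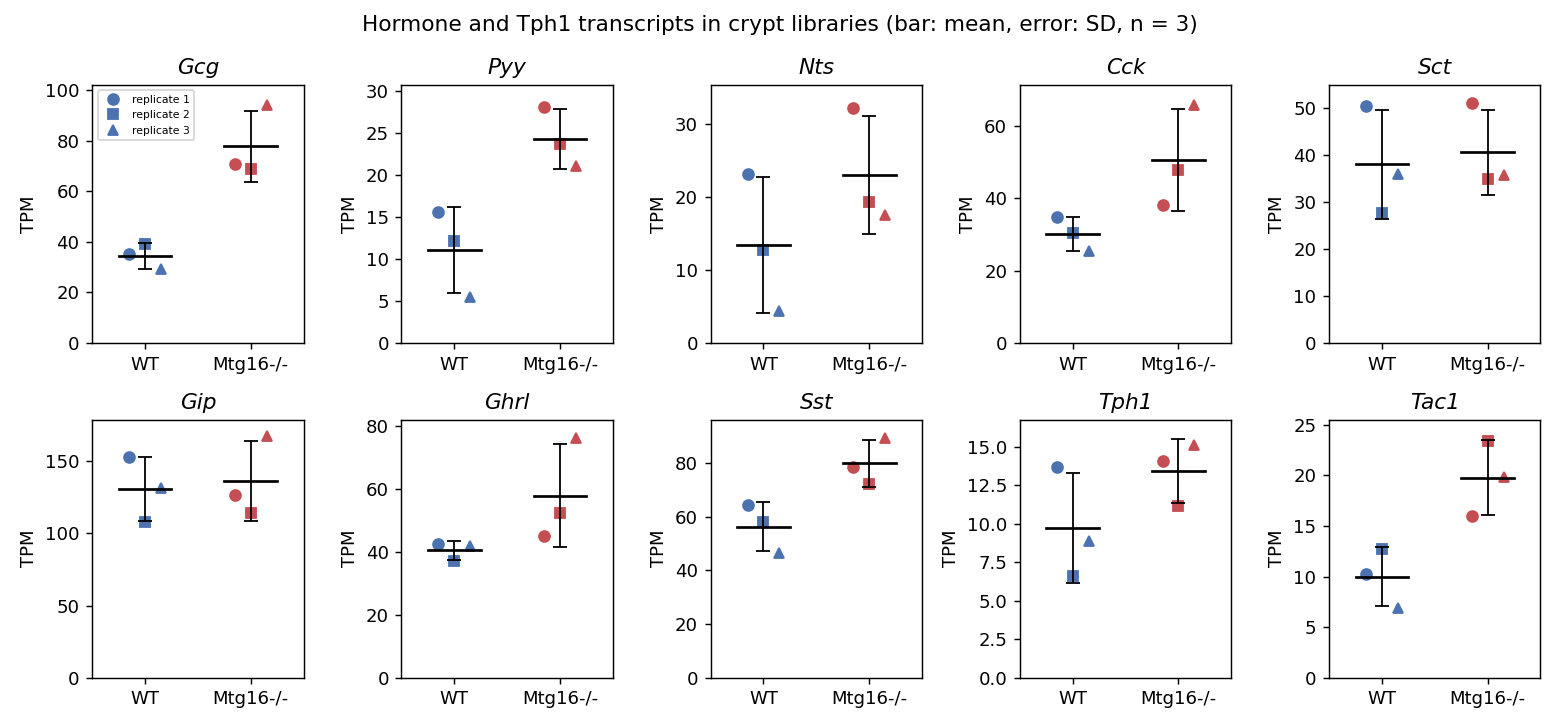
Level of each of the 10 genes in TPM (y axis, starting at 0) in WT and Mtg16-/- crypt libraries (x axis), with circles, squares and triangles for replicates 1, 2 and 3, the long bar for the group mean and the error bar for the SD of 3 mice. The groups are apart for Gcg, Pyy, Cck, Ghrl, Sst and Tac1 and overlap for Nts, Sct, Gip and Tph1.

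The first group holds the products of cells that are most frequent towards the distal gut. Gcg (chromosome 2, 62474530 to 62483653) encodes proglucagon, which L cells cut into the incretin GLP-1 and the gut growth factor GLP-2. Gcg was at 34.98, 39.30 and 29.12 TPM in WT and at 70.73, 68.76 and 93.93 TPM in Mtg16-/- libraries. The lowest Mtg16-/- library was thus well above the highest WT library, and the spread was narrow in both groups, with 1.35-fold between the lowest and highest WT mouse and 1.37-fold between the Mtg16-/- mice. The mean was 34.5 ± 5.11 TPM (SD, n = 3) in WT and 77.8 ± 14.0 TPM in Mtg16-/- crypts, a ratio of 2.26. The log2 fold change on the scale of log2(TPM + 1) was 1.15 (SE 0.17, 95% interval 0.76 to 1.54), and it stayed between 1.01 and 1.24 when any 1 mouse was left out. With a mean TPM of at least 5 as the filter, or with robust moderation of the variances, its adjusted p was 0.0998 and 0.0967, with 0.149% and 0.163% of all genes called.

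Pyy (chromosome 11, 102106676 to 102107832) encodes peptide YY, a satiety peptide that L cells release together with GLP-1. Its level was 15.55, 12.11 and 5.46 TPM in WT and 28.13, 23.66 and 21.05 TPM in Mtg16-/- libraries. No values overlapped, although WT replicate 3 stood at less than the other WT mice, which made the WT spread 2.85-fold. Pyy averaged 11.0 ± 5.13 TPM in WT and 24.3 ± 3.58 TPM in Mtg16-/- crypts, with a log2 fold change of 1.17 (SE 0.32, 95% interval 0.42 to 1.91, limma adjusted p = 0.263). Without WT replicate 3 the log2 fold change was 0.77.

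Nts (chromosome 10, 102481756 to 102490418) encodes neurotensin, a peptide of N cells that slows gut motility and aids fat uptake. Its level was 23.11, 12.68 and 4.42 TPM in WT and 32.24, 19.27 and 17.50 TPM in Mtg16-/- libraries. The WT mice differed 5.23-fold, the widest WT spread of the 10 genes, and only Mtg16-/- replicate 1 lay above all of them. The log2 fold change was 0.93 (SE 0.50, 95% interval -0.21 to 2.08, limma adjusted p = 0.414), and without WT replicate 3 it was 0.35. Pyy and Nts ranked the 3 mice of each group alike, replicate 1 highest and replicate 3 lowest, and the summed TPM of 8 ileal genes had the same ranking, at 4237, 4043 and 2583 in WT and at 4400, 3561 and 2321 in Mtg16-/- libraries. In WT the single genes of this list did not all share that ranking. Guca2a, Slc51a and Slc51b did, whereas Fabp6 (1168, 1926 and 735 TPM), Nr1h4, Slc10a2 and Fgf15 were highest in WT replicate 2. Muc13 (1996, 1131 and 1194 TPM) was lowest there. The ileal sum overlapped between the groups, and its part in the levels of Pyy and Nts was not tested.

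The next group holds hormones made mostly in the upper small intestine. Gip (chromosome 11, 96024532 to 96030831) encodes the incretin GIP of K cells. It was at 153.07, 108.18 and 131.30 TPM in WT and at 126.76, 114.47 and 167.42 TPM in Mtg16-/- libraries. The groups overlapped throughout, with means of 131 ± 22.4 and 136 ± 27.7 TPM. The log2 fold change was 0.05 (SE 0.19, limma adjusted p = 0.911), and its 95% interval of -0.38 to 0.48 leaves out a change of the size seen for Gcg. It was -0.08 without WT replicate 2 and -0.10 without Mtg16-/- replicate 3.

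Sct (chromosome 7, 141278329 to 141279174) encodes secretin, which makes the pancreas release bicarbonate and is made by several enteroendocrine subtypes as they mature. Its level was 50.54, 27.59 and 36.07 TPM in WT and 51.11, 35.00 and 35.80 TPM in Mtg16-/- libraries. Replicate 1 was highest in both groups and the other mice of the groups overlapped. The log2 fold change was 0.11 (SE 0.24, 95% interval -0.44 to 0.66, limma adjusted p = 0.846). Leaving out WT replicate 2 gave -0.09, and leaving out Mtg16-/- replicate 1 gave -0.06.

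Cck (chromosome 9, 121489824 to 121495694) encodes cholecystokinin, the I cell hormone that empties the gall bladder and curbs food intake. Its level was 34.88, 30.32 and 25.47 TPM in WT and 38.16, 47.85 and 65.96 TPM in Mtg16-/- libraries. The groups did not overlap, but the lowest Mtg16-/- mouse was close to the highest WT mouse and replicate 3 was far above. The mean was 30.2 ± 4.71 TPM in WT and 50.7 ± 14.1 TPM in Mtg16-/- crypts, with a log2 fold change of 0.70 (SE 0.21, 95% interval 0.21 to 1.19, limma adjusted p = 0.266). Without Mtg16-/- replicate 3 it was 0.50.

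Ghrl (chromosome 6, 113716119 to 113719911) encodes ghrelin, the appetite hormone of X/A-like cells, which are most abundant in the stomach. Its level was 42.63, 37.07 and 41.90 TPM in WT and 45.12, 52.52 and 76.28 TPM in Mtg16-/- libraries. The WT mice were within 1.15-fold of each other, the narrowest WT spread of the 10 genes, and all Mtg16-/- mice were above them. The log2 fold change was 0.47 (SE 0.19, 95% interval 0.03 to 0.92, limma adjusted p = 0.322), and without Mtg16-/- replicate 3 it was 0.26. WT replicates 2 and 3 were the libraries with stomach genes, and the part of these in the level of Ghrl was not tested. Mboat4, whose enzyme adds the fatty acid that ghrelin needs for activity, was at 0.12, 0.53 and 0.15 TPM in WT and at 0.78, 0.59 and 0.90 TPM in Mtg16-/- libraries, below the level at which genes were tested.

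A list of 10 genes of the proximal small intestine, led by the enterocyte genes Fabp1 and Rbp2, summed to between 3923 and 11877 TPM in WT and to between 1233 and 2634 TPM in Mtg16-/- libraries, without overlap. Fabp1 and Lct are also in the enterocyte list, and the median log2 fold change was -1.20 in both lists, so gut position and enterocyte content cannot be told apart here. Of the 10 genes, 0 were called, 8 had lower levels at an unadjusted limma p under 0.05, and 6 were lower without overlap. Among all tested genes, 8.05% and 11.1% were lower in these ways. Of the genes not in the enterocyte list, Rbp2 (-2.05), Gsta1 (-1.15), Adh6a (-1.30), Gata4 (-0.42) and Onecut2 (-1.0) were lower without overlap. Cyp2b10 (-1.29), Slc40a1 (-0.07) and Cybrd1 (-0.19) overlapped between the groups. Adh6a, Gata4, Onecut2, Cyp2b10, Slc40a1 and Cybrd1 were named here after their values were seen. The sum was lower in the libraries in which Cck and Ghrl were higher and in which Gip and Sct were near the WT level. Its part in the 4 hormone levels was not tested.

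Sst (chromosome 16, 23889573 to 23891342) encodes somatostatin, the D cell peptide that holds back the release of most other gut hormones. Its level was 64.55, 57.91 and 46.63 TPM in WT and 78.47, 72.15 and 89.51 TPM in Mtg16-/- libraries. Every Mtg16-/- mouse was above every WT mouse, and the spread was small in both groups. Sst averaged 56.4 ± 9.06 TPM in WT and 80.0 ± 8.79 TPM in Mtg16-/- crypts, with a log2 fold change of 0.51 (SE 0.15, 95% interval 0.15 to 0.86, limma adjusted p = 0.270). Somatostatin is also made in the stomach, and the part of the stomach genes of WT replicates 2 and 3 in the level of Sst was not tested.

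The last group holds products of enterochromaffin cells, the serotonin cells of the gut. Tph1 (chromosome 7, 46644641 to 46672537) encodes tryptophan hydroxylase 1, the rate-limiting enzyme of serotonin synthesis outside neurons. Its level was 13.68, 6.64 and 8.87 TPM in WT and 14.07, 11.13 and 15.11 TPM in Mtg16-/- libraries. WT replicate 1 lay among the Mtg16-/- mice, so the groups overlapped. The log2 fold change was 0.47 (SE 0.25, 95% interval -0.10 to 1.04, limma adjusted p = 0.408), and without WT replicate 2 it was 0.25. Mast cells also use Tph1. The 11 genes of a mast cell list summed to between 26.3 and 34.6 TPM in WT and to between 14.8 and 15.7 TPM in Mtg16-/- libraries. Kit, the most abundant of them, averaged 11.5 TPM in WT and 11.9 TPM in Mtg16-/- libraries, with a log2 fold change of 0.04. The mast cell protease genes Mcpt1 and Mcpt2 were at 4.02 to 15.19 TPM in WT and at 0.34 to 2.77 TPM in Mtg16-/- libraries, the opposite direction to Tph1, while the mast cell gene Cpa3 was at most 0.15 TPM and Cma1 was listed at 0 in all libraries. Their part in the level of Tph1 was not tested.

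Tac1 (chromosome 6, 7555061 to 7562978) encodes the precursor of substance P and neurokinin A, which enterochromaffin cells and enteric neurons make. Its level was 10.26, 12.74 and 6.94 TPM in WT and 16.03, 23.43 and 19.87 TPM in Mtg16-/- libraries. The groups did not overlap. Tac1 averaged 9.98 ± 2.91 TPM in WT and 19.8 ± 3.70 TPM in Mtg16-/- crypts, a ratio of 1.98, with a log2 fold change of 0.94 (SE 0.23, 95% interval 0.41 to 1.47, limma adjusted p = 0.237). Enteric neuron genes (15 genes) summed to between 2.60 and 3.61 TPM in WT and to between 4.35 and 4.99 TPM in Mtg16-/- libraries, higher without overlap like Tac1, and the neuronal gene Elavl4 was at most 0.21 TPM. The part of neurons in the level of Tac1 was not tested.

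**Figure D2:**
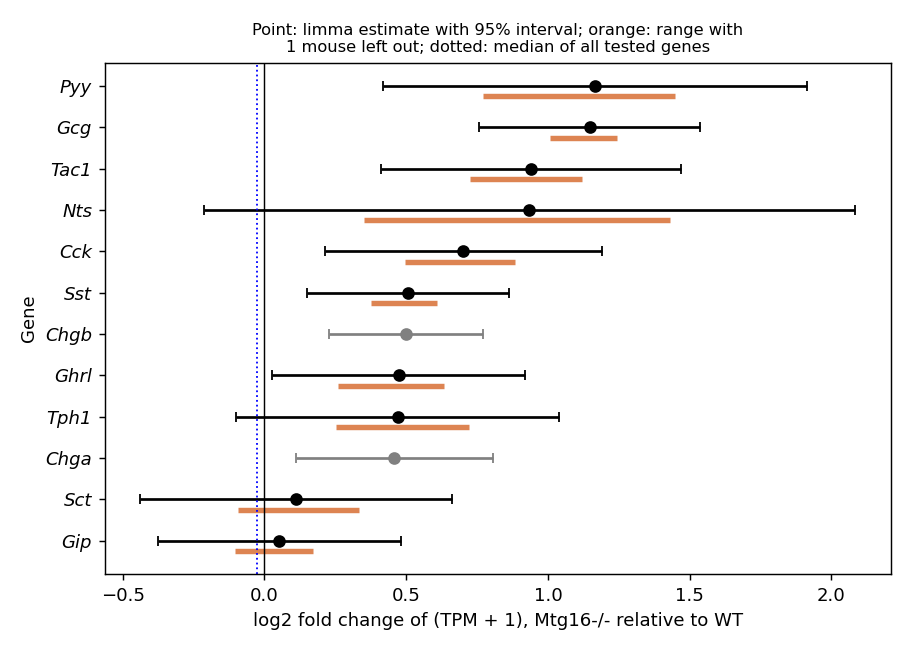
Log2 fold change of (TPM + 1) in Mtg16-/- relative to WT crypts (x axis) for each of the 10 genes and, in grey, for the chromogranin genes Chga and Chgb (y axis). Points and black bars are the limma estimate and its 95% interval, orange bars the range of estimates with 1 mouse left out, and the dotted line the median of all tested genes (-0.03). Pyy (1.17) and Gcg (1.15) stand at the top, Sct (0.11) and Gip (0.05) at the bottom.

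In WT crypts Gip was the most abundant of the 10 messages, and its lowest library (108.18 TPM) was above the highest value of Sst, the next gene (64.55 TPM). Sst in turn was above Ghrl, whereas Ghrl, Sct, Gcg and Cck followed with means between 40.5 and 30.2 TPM and each overlapped its neighbour in the order. Nts, Pyy, Tac1 and Tph1 formed the lower end, with means between 13.4 and 9.73 TPM that also overlapped. In Mtg16-/- crypts Gip remained first, and Gcg followed Sst, with means of 77.8 and 80.0 TPM and overlapping values. Sct was separate from the lower genes Pyy, Nts and Tac1 (means 24.3, 23.0 and 19.8 TPM), and Tph1 was last at 13.4 TPM, below every Tac1 value.

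Summed over the 10 genes, hormone and Tph1 messages made up 443, 345 and 336 TPM in WT and 501, 468 and 602 TPM in Mtg16-/- libraries. The groups did not overlap, and the mean was 375 ± 59.6 TPM in WT and 524 ± 70.0 TPM in Mtg16-/- crypts (ratio 1.40, two-sided exact permutation test, p = 0.1, the smallest possible). Each gene's share of this sum was also computed. Gcg contributed 9.32 ± 1.85% of it in WT and 14.8 ± 0.74% in Mtg16-/- libraries without overlap. Gip contributed 35.0 ± 3.85% in WT and 25.8 ± 1.74% in Mtg16-/- libraries, also without overlap. The shares of the other 8 genes overlapped between the groups. How often such shares are apart among other genes was not computed. Sst, for example, made up 15.1% and 15.3%, and Tph1 2.55% and 2.56%.

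**Figure D3:**
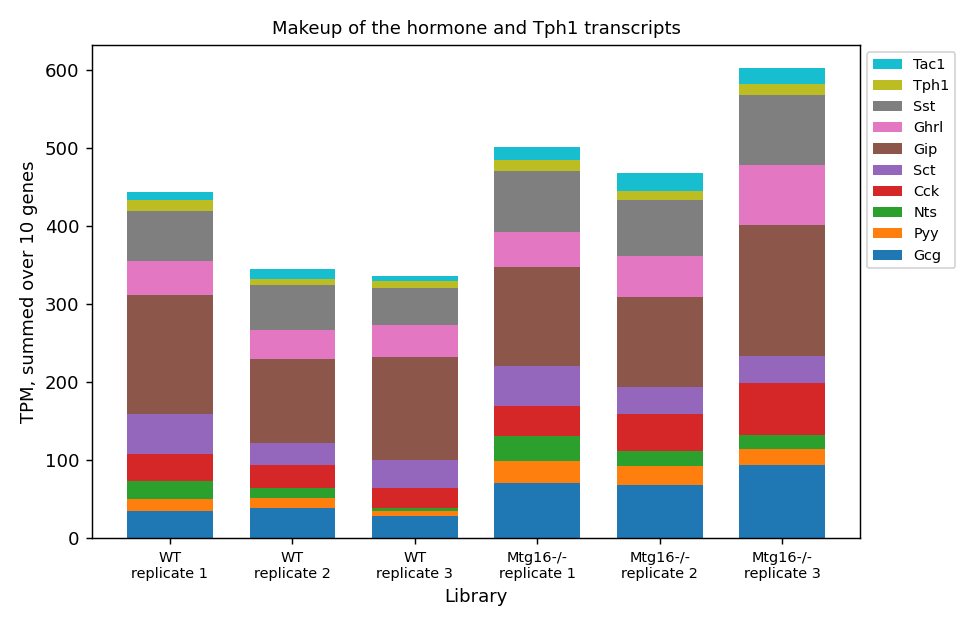
Summed TPM of the 10 genes (y axis, starting at 0) in each of the 6 libraries (x axis), with each coloured segment the TPM of 1 gene. The Mtg16-/- columns reach 468 to 602 TPM and the WT columns 336 to 443 TPM, and the Gcg segment at the foot is larger in each Mtg16-/- column while the Gip segment is similar.

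The mice did not order alike in all genes. WT replicate 1 had the highest WT value in 8 of 10 genes, all but Gcg and Tac1. WT replicate 3 was the lowest WT mouse in 6 genes (Gcg, Pyy, Nts, Cck, Sst and Tac1) and WT replicate 2 in the other 4 (Sct, Gip, Ghrl and Tph1). Among the Mtg16-/- mice, replicate 3 was highest in 6 genes (Gcg, Cck, Gip, Ghrl, Sst and Tph1), replicate 1 in Pyy, Nts and Sct, and replicate 2 in Tac1. With WT replicates 2 and 3, the libraries with stomach genes, both left out, only 1 WT mouse remained and was assumed to vary like the others. The log2 fold changes were then 1.12 for Gcg, 0.87 for Tac1, 0.60 for Pyy, 0.49 for Cck, 0.40 for Ghrl and 0.30 for Sst, whereas Nts (-0.06), Tph1 (-0.03), Gip (-0.19) and Sct (-0.33) were below 0. None of the 10 was called in that fit.

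Hormone levels were next set against Chga, the gene of chromogranin A, a protein of the secretory granules that many enteroendocrine cells share. Chga was at 60.44, 54.72 and 45.01 TPM in WT and at 81.26, 74.58 and 64.76 TPM in Mtg16-/- libraries, without overlap, with a log2 fold change of 0.46 (SE 0.15, limma adjusted p = 0.281). For each gene the log2(TPM + 1) of Chga in the same library was subtracted. Relative to Chga, Gcg was 0.69 higher in Mtg16-/- libraries and Pyy 0.71 higher, without overlap between the groups (two-sided exact permutation test, p = 0.1 for each, adjusted over 10 genes p = 0.5). Among all pairs of tested genes, 22.8% had a difference in log2(TPM + 1) without overlap between the groups, so that being apart in this way was not rare. The share among all tested genes set against Chga alone was not computed. The Gcg value was 0.46 without Mtg16-/- replicate 3, and that of Pyy 0.43 without WT replicate 3. The difference was 0.48 for Nts, 0.48 for Tac1 and 0.24 for Cck, with overlapping groups, and the Nts value was 0.01 without WT replicate 3 and that of Cck -0.05 without Mtg16-/- replicate 3. For Sst, Ghrl and Tph1 it was 0.05, 0.01 and 0.01, and these turned below 0 under other references or with a mouse left out. For Sct and Gip it was -0.35 and -0.41, again with overlapping groups.

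**Figure D4:**
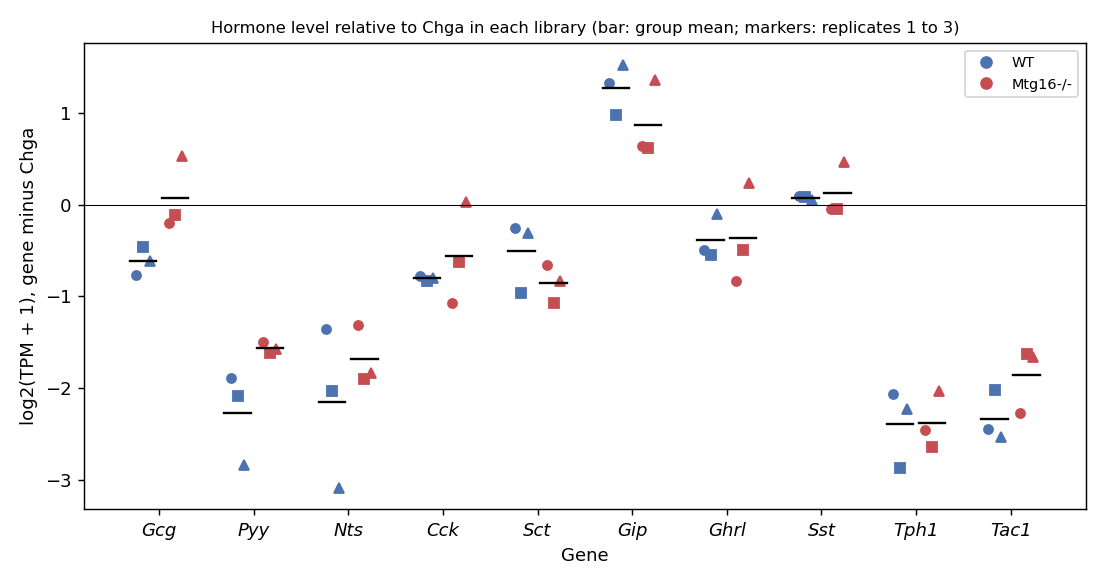
Level of each gene relative to Chga in the same library, as log2(TPM + 1) of the gene minus that of Chga (y axis), for WT (blue) and Mtg16-/- (red) libraries, with circles, squares and triangles for replicates 1, 2 and 3 and bars for group means. Gcg and Pyy are the 2 genes whose groups do not overlap, and Gip lies 0.41 lower in Mtg16-/- crypts with overlapping values. Among all pairs of tested genes, 22.8% have a difference without overlap between the groups. The share relative to Chga alone was not computed.

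The 10 genes were also compared with each other, as the change of the difference between both genes of a pair in log2(TPM + 1). Of 45 pairs, 12 had no overlap between the groups, close to the 22.8% among all pairs of tested genes, and pairs that share a gene are not independent. The smallest p adjusted over the pairs was 0.375 (two-sided exact permutation test, in which 0.1 is the smallest raw p). Gip took part in 5 of the 12 and Gcg in 4. Gcg was higher relative to Cck by 0.45, to Sst by 0.64, to Ghrl by 0.67 and to Gip by 1.09 in Mtg16-/- crypts, each without overlap. Gcg and Pyy differed little in this respect, with a change of their difference of -0.02. Tac1 took part in none of the 12.

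Genes that equip the same cells to make and store hormones were examined from lists that hold none of the 10. These lists too were chosen with earlier results of these data known. The granin and prohormone processing list had 13 genes, of which 10 were tested and 0 called, with a median log2 fold change of 0.48. Its 6 genes at an unadjusted p under 0.05 with higher levels were Chgb, Chga, Cpe, Scg2, Scg3 and Scg5, and the 1 with a lower level was Pcsk5, against 6.53% and 8.05% of all tested genes. Scg5, with a WT mean of 0.85 TPM, passed the filter on low values only through its higher Mtg16-/- levels. Chgb, which encodes chromogranin B, was at 98.67, 104.47 and 87.62 TPM in WT and at 138.10, 141.95 and 131.62 TPM in Mtg16-/- libraries, with a log2 fold change of 0.50 (SE 0.12, limma adjusted p = 0.225). Cpe, the carboxypeptidase that trims prohormone fragments, was named after its values were seen and had a log2 fold change of 0.75 (limma adjusted p = 0.224). Pam, which amidates peptides such as GLP-1, peptide YY and cholecystokinin, had a log2 fold change of 0.32 without overlap (limma adjusted p = 0.347). Pcsk5, a proprotein convertase also made by absorptive cells, was at 87.9 ± 23.1 TPM in WT and 55.7 ± 18.0 TPM in Mtg16-/- crypts, a log2 fold change of -0.68 (limma adjusted p = 0.321).

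Among 25 transcription factor genes of the enteroendocrine lineage, 19 were tested and 0 called, and 18 had a log2 fold change above 0, with a median of 0.52. The groups were apart, with higher Mtg16-/- levels, in 12 of the 19, against 9.94% of all tested genes, and apart with lower levels in 1, Onecut2. Of the 12, Isl1 and Pax6 had WT means of 0.97 and 0.68 TPM and passed the filter on low values only through their higher Mtg16-/- levels. The 4 most abundant were Sox4 (log2 fold change 0.36), Foxa3 (0.22), Foxa1 (0.52, limma adjusted p = 0.247) and Onecut2 (-1.0, limma adjusted p = 0.263). Neurog3, the factor that commits progenitors to this lineage, was named after its values were seen. It was at 3.34, 5.10 and 5.80 TPM in WT and at 5.22, 11.29 and 12.60 TPM in Mtg16-/- libraries, with Mtg16-/- replicate 1 among the WT mice and a log2 fold change of 0.84 (SE 0.32, limma adjusted p = 0.309). Pax6, which activates Gcg and was also named after its values were seen, was at 0.67, 0.65 and 0.72 TPM in WT and at 1.45, 1.37 and 1.51 TPM in Mtg16-/- libraries, with a log2 fold change of 0.54 (limma adjusted p = 0.311).

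Around Tph1, 13 of 15 genes of serotonin synthesis, storage, uptake and breakdown were tested. None was called. At an unadjusted limma p under 0.05, 2 had higher levels, Pts (log2 fold change 0.55) and Fev (0.57), and 1 a lower level, Gch1 (-0.50). Among all tested genes, 6.53% were higher and 8.05% lower in this way. The median log2 fold change of the list was 0.13, below the 0.47 of Tph1. The most abundant were Maoa, which degrades serotonin (log2 fold change 0.25), Qdpr (0.16), Aldh2 (-0.04) and Pcbd1 (0.07), which other epithelial cells express widely. Ddc, which carries out the step after Tph1, had a log2 fold change of -0.31, and the serotonin transporter gene Slc6a4, made by absorptive cells, -0.44. The vesicular transporter gene Slc18a1 had 0.16, and Lmx1a, a factor of enterochromaffin cells, 0.42 with groups apart (limma adjusted p = 0.368). Ddc, Slc6a4, Slc18a1 and Lmx1a, like Pts, Fev and Gch1, were named after their values were seen. Tph2, the neuronal enzyme gene, was at most 0.06 TPM.

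Of 17 other peptide hormone genes of the gut, 4 passed the filter on low values and 0 were called, with log2 fold changes of -1.11 for Guca2b, 0.10 for Guca2a, 0.39 for Iapp and -0.44 for Nmb. Nmb, with a Mtg16-/- mean of 0.83 TPM, passed the filter only through its WT levels. The guanylin genes Guca2a and Guca2b, which encode fluid-regulating peptides of many epithelial cells, were far more abundant than the 10 genes described. Gast, the gastrin gene, was at 2.42 and 0.67 TPM in WT replicates 2 and 3, at 0.45 TPM in Mtg16-/- replicate 3 and listed at 0 in the others. Insl5, the colonic L cell hormone gene, was at 0.29 TPM in Mtg16-/- replicate 3 and listed at 0 in the others. Of the colon genes, Hoxb13 and Hoxd12 were listed at 0 in all libraries. Car1 was at 3.58 TPM in WT replicate 2 and 11.93 TPM in Mtg16-/- replicate 2, and listed at 0 in the others. Retnlb was at 8.70 TPM in WT replicate 3 and at 0.33 to 1.88 TPM in the others. Car1 and Retnlb were named after their values were seen. The part of colon material in the levels of Gcg and Pyy was not tested.

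Of 30 genes for nutrient sensing and excitability, 16 were tested and 0 called, with a median log2 fold change of 0.22. Slc5a1 and Slc15a1, the glucose and peptide carriers that absorptive cells share with enteroendocrine cells, had log2 fold changes of -1.11 and -0.82, Lpar5 had -0.24 and the granule gene Ptprn2 0.47 (limma adjusted p = 0.279). Of 30 receptor genes for the 10 products, only Htr4 (log2 fold change 0.23) and Glp1r (-0.51) passed the filter on low values, and 11 were listed at 0 in all libraries. Glp1r, with a Mtg16-/- mean of 0.88 TPM, passed only through its WT levels, led by WT replicate 1 at 3.18 TPM. Of 11 genes that cut or modify the peptides, 9 were tested and 0 called, with a median of -0.54. This list was led by peptidase genes of the enterocyte surface, Anpep (-0.99), Enpep (-0.54), Ace (-0.91) and Dpp4 (-0.61), whose product DPP4 inactivates GLP-1 and GIP. Prcp, a carboxypeptidase named after its values were seen, had 0.71 without overlap (limma adjusted p = 0.141).

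**Figure D5:**
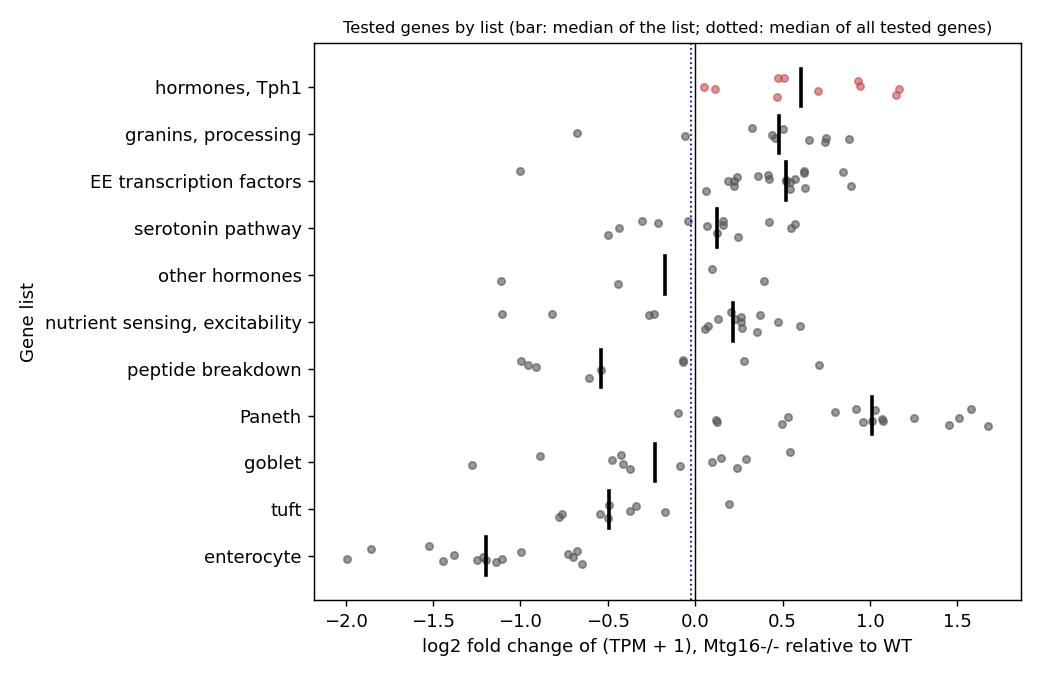
Log2 fold change of (TPM + 1) in Mtg16-/- relative to WT crypts (x axis) for the tested genes of each list (y axis), with 1 point per gene (vertical position within a list is arbitrary), a bar for the median of the list and a dotted line for the median of all tested genes. The 10 hormone and Tph1 genes (red, median 0.60) lie near the granin (0.48) and transcription factor (0.52) lists, between Paneth (1.01) and enterocyte (-1.20) genes.

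Beside the median log2 fold change of 0.60 for the 10 genes, those of other epithelial cell types were 1.01 for 17 tested Paneth cell genes, -0.23 for 12 goblet cell genes, -0.49 for 9 tuft cell genes and -1.20 for 15 enterocyte genes, with 0 called in each list. All genes of a library share a common TPM total, so the levels of abundant genes bear on the values of the others. Each library was therefore rescaled without the 100 genes of the highest mean TPM over all libraries. The log2 fold change of Gcg was then 1.21 and that of Tac1 1.00, and the summed TPM of the 10 genes had a ratio of 1.47. Pancreatic genes summed to between 10.4 and 44.3 TPM in WT and to between 9.92 and 16.9 TPM in Mtg16-/- libraries, and the listed level was 0 throughout for Ins1 and Ins2, the insulin genes of islets, where Gcg, Sst and Ghrl are also made. Genes of enteric glia other than Erbb3 and Gfra3 were near 0, with Sox10 and Cdh19 listed at 0. Colon genes summed to between 421 and 546 TPM in WT and to between 334 and 453 TPM in Mtg16-/- libraries. Most of this was B4galnt2, at 306 to 419 TPM in WT and 279 to 355 TPM in Mtg16-/- libraries.

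The mean profile of the 10 genes over the 6 libraries, each gene centred on its own mean in log2(TPM + 1), was lowest in WT replicate 3 (-0.64) and highest in Mtg16-/- replicate 3 (0.44). By the root mean square difference from this profile, Sst was the closest of the 10 at 0.101 and Nts the farthest at 0.545. The nearest genes outside the 10, among all 12268 tested, were F3 (0.119), Cox6b2 (0.122), Atraid (0.129), Dynlt1b (0.138) and 1500011B03Rik (0.139). Of these, F3 encodes tissue factor, Cox6b2 a subunit of cytochrome c oxidase and Dynlt1b a dynein light chain. The mean includes each of the 10 genes, which brings them nearer to it. Even so, 9 of the 10 ranked between 67 and 9388 among all tested genes in this measure, so that many genes outside the 10 were closer.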

How the data were processed

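Crypt RNA of 3 WT and 3 Mtg16-/- mice was analysed, 1 library per mouse. The deposited values are TPM by gene symbol, rounded to 2 decimals, which the authors made with RSEM. The submitters' processing notes list cutadapt 1.9.1, STAR 2.5.2a, RSEM 1.3.0, DESeq2 1.12.3 and the build mm10. TPM scales each library to one total and keeps no read number, so depth is unknown and no counting interval is given.

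Values were transformed as log2(TPM + 1). Of 24736 genes, 12268 averaged 1 TPM or more and were tested with limma 3.58.1 (lmFit, eBayes with trend, R 4.3.3) for the difference between the genotypes, with no other term in the model. P-values were adjusted by Benjamini-Hochberg over all of them, at a threshold of 0.1. This scale understates the change of low genes. Single values were compared by two-sided exact permutation tests. The calculation was tested on simulated data. P-values set the difference between the genotypes against the spread between these mice.

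The 10 genes and all lists were chosen with earlier results of these data known. Named genes were the 10, Cbfa2t3, the 4 most abundant and any called genes of each companion list, the 3 most abundant of lists of other cell types where these are described, and the 5 most alike. Others are named as chosen after their values were seen, or as defining markers of a list. Alternatives were pseudocounts, filters, scalings, variance settings, a replicate block, other reference genes and each mouse left out. The stomach gene alternative was chosen after seeing the data. Positions and promoters come from RefSeq GRCm38.p6 (10 of 10 matched). Promoter windows were limited to the 250 bases before each start. The study's own lists of changed genes were not used.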

Additional observations from a re-analysis of the deposited data

How the results depend on the processing

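Over 19 alternatives for each of the 10 genes, 181 of 190 log2 fold changes kept their direction, 9 were reversed and 12 became called, while 169 were not called and kept their direction. The number of the 10 called was 0 in the analysis above, 1 (Gcg) with a mean TPM of at least 5 and with robust moderation (log2 fold change 1.15 in both), 6 with array weights and 0 in every fit with 1 mouse left out. With array weights the called genes were Gcg (1.17), Pyy (1.63), Nts (1.60), Cck (0.78), Sst (0.59) and Tac1 (1.23), Gip was at -0.028, and 14 of 71 tested companion genes were called (13 higher, 1 lower), among 855 of all genes. The cause of this was not tested. Without WT replicates 2 and 3, Nts (-0.056), Sct (-0.33), Gip (-0.19) and Tph1 (-0.034) were reversed.

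Whether the replicate numbers pair the mice is open. Deviations from the group means correlated at 0.429, 0.0753 and 0.237 for numbers 1, 2 and 3. WT replicate 2 correlated best with Mtg16-/- replicate 3 (0.198). The other 5 libraries each correlated best with the library of their own number in the other group. With the replicate number as a block, 4 of the 10 were called, Gcg (1.15), Pyy (1.17), Nts (0.93) and Tac1 (0.94), with 18 companion genes (8 higher, 10 lower) and 1201 genes in all (385 higher, 816 lower, against 2 and 2 without the block). The cause of this was not tested. The called genes over the whole table numbered 4 in the analysis above, 15 with a mean TPM of at least 5, 20 with robust moderation, 1 with median-ratio or quantile scaling, 0 without a filter, without the intensity trend or without the 100 most abundant genes, and 0 to 20 with 1 mouse left out. Scalings moved the median of all genes from -0.03 to at most 0.03.

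With 1 mouse left out, log2 fold changes ranged from 1.01 to 1.24 for Gcg, 0.77 to 1.45 for Pyy, 0.35 to 1.43 for Nts, 0.50 to 0.88 for Cck, -0.092 to 0.33 for Sct, -0.10 to 0.17 for Gip, 0.26 to 0.63 for Ghrl, 0.38 to 0.61 for Sst, 0.25 to 0.72 for Tph1 and 0.72 to 1.12 for Tac1. Relative to Chga, they ranged from 0.46 to 0.82 for Gcg, 0.43 to 0.90 for Pyy, 0.01 to 0.88 for Nts, -0.049 to 0.50 for Cck, -0.57 to -0.22 for Sct, -0.65 to -0.28 for Gip, -0.28 to 0.25 for Ghrl, -0.12 to 0.13 for Sst, -0.23 to 0.17 for Tph1 and 0.37 to 0.69 for Tac1. Chgb as the reference gave -0.027 for Ghrl and -0.030 for Tph1, and the mean of Chga, Chgb, Scg3, Pcsk1 and Cpe gave -0.086 for Ghrl, -0.089 for Tph1 and -0.054 for Sst. The ratio of summed TPM ranged from 1.29 to 1.54.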
